A study of Mus musculus with 8 samples.

Results

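The glucocorticoid system was followed through 10 genes in mouse corpus callosum, the white matter tract between the cerebral hemispheres, after 1 week of cuprizone feeding. They were chosen by name: Nr3c1 and Nr3c2, which encode the glucocorticoid and mineralocorticoid receptors, the hormone-activating enzyme gene Hsd11b1, and the responsive genes Fkbp5, Sgk1, Tsc22d3, Per1, Zbtb16, Sult1a1 and Plin4. Each of the 10 had exactly 1 transcript cluster (the array's unit, a set of probes along 1 gene) with a single gene symbol, out of 21789 such clusters and 23410 clusters with any symbol. The cuprizone group was 4 male wild-type C57BL/6 mice given 0.25% cuprizone, a copper chelator that harms oligodendrocytes, for 1 week. The control group was 4 male wild-type C57BL/6 mice on normal diet. The labels give an age of 8 weeks for all 8 mice, which were anaesthetized with ketamine and xylazine and perfused before dissection. Whole tissue was measured, 1 Affymetrix Mouse Gene 1.0 ST array for each biological replicate, and the hour of dissection and blood corticosterone are not given in the sources used here.

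Glucocorticoids enter cells, release the glucocorticoid receptor from a chaperone complex in the cytoplasm and let it enter the nucleus, where it binds response elements beside its target genes. In brain the mineralocorticoid receptor also binds corticosterone, the main glucocorticoid of mice. Fkbp5, Sgk1, Tsc22d3 and Per1 are widely used as readouts of this signal, and Sgk1 is known to rise in oligodendrocytes of stressed mice. Several of these genes also answer to other signals, such as the circadian clock, cytokines or salt balance.

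The 10 genes did not move together. Fkbp5 and Per1 rose with cuprizone, Hsd11b1 fell, and the other 7 did not pass the test, among them both receptors and the classical targets Sgk1 and Tsc22d3. The test was limma over all 23410 clusters, and a gene was called at a Benjamini-Hochberg adjusted p under 0.05. Of the 10 genes 2 were called higher, against a background of 4.71% of all clusters, and 1 lower, against 3.52%. Their median log2 fold change was -0.077, beside -0.0074 for all clusters tested, and their log2 fold changes ran between -0.47 and 0.40. At an unadjusted limma p under 0.05 there were 5 of the 10, against a background of 20.8%. No tendency of the list as a whole was tested, because the genes were chosen with earlier results known. In bulk tissue, fewer cells of a type and less RNA per cell cannot be told apart, which holds for every gene described here.

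**Figure D1:**
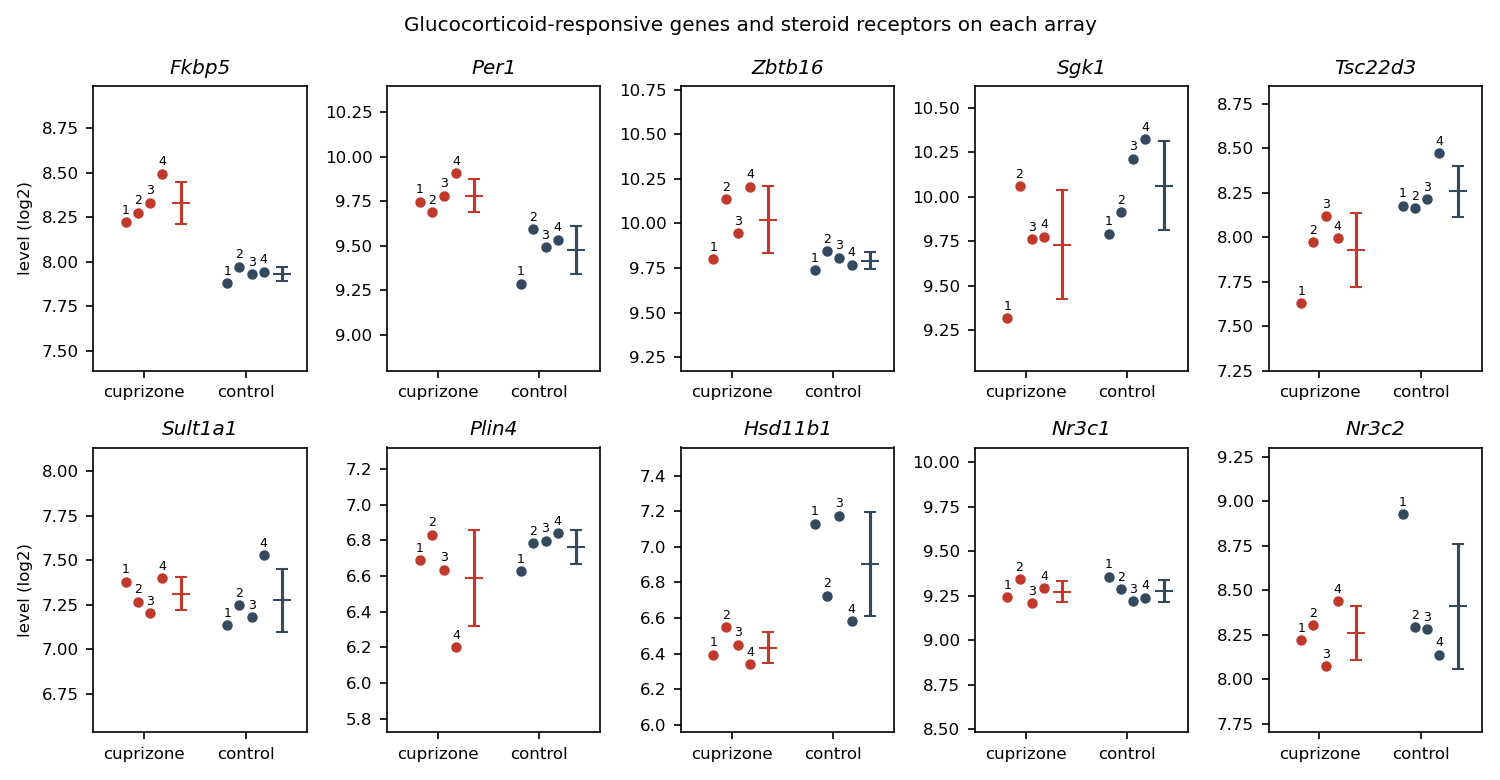
Log2 level (vertical axis, every panel spanning the same number of log2 units) of the 10 genes on the 4 cuprizone arrays (red) and the 4 control arrays (blue), with replicate numbers beside the points and the mean and SD to the right of each group. Fkbp5 and Per1 lie higher and Hsd11b1 and Tsc22d3 lower on every cuprizone array than on every control array, while the other 6 overlap. Of all clusters, 15.3% had no overlap between the diets, in either direction.

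The receptors themselves showed no difference past the test. Nr3c1 (transcript cluster 10458569) had log2 levels of 9.24, 9.34, 9.21 and 9.29 on cuprizone replicates 1 to 4, and of 9.36, 9.29, 9.22 and 9.24 on control replicates 1 to 4. The 2 groups overlapped over most of their ranges. The means were 9.27 ± 0.06 with cuprizone and 9.28 ± 0.06 in controls (SD, n = 4 each), a log2 fold change of -0.0037 ± 0.056 (SE) with a 95% interval of -0.13 to 0.12 (limma adjusted p = 0.98). Changes inside that interval remain compatible with these values. The interval is not the smallest change that the test could have called with 4 arrays per group.

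Nr3c2 (cluster 10572949), whose product binds corticosterone with high affinity in neurons of the limbic system, had log2 levels of 8.22, 8.30, 8.07 and 8.44 on the cuprizone arrays. In controls it had 8.93 on replicate 1 and 8.29, 8.28 and 8.14 on replicates 2 to 4. A single control array thus stood above the 7 others, and the groups otherwise overlapped. The log2 fold change was -0.15 ± 0.15 (limma adjusted p = 0.65), and without control replicate 1 it was 0.022.

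Hsd11b1 (cluster 10361234) encodes the reductase that regenerates active corticosterone from its inert 11-dehydro form inside cells. Its log2 levels were 6.39, 6.55, 6.45 and 6.34 on the cuprizone arrays, and 7.13, 6.73, 7.17 and 6.58 on the control arrays. By mean level Hsd11b1 was dim, at percentile 36.4 of all clusters. All 4 cuprizone arrays lay below all 4 controls, which was so, in either direction, for 15.3% of all clusters, but control replicate 4 exceeded cuprizone replicate 2 only slightly. The means were 6.43 ± 0.09 with cuprizone and 6.90 ± 0.29 in controls (SD, n = 4 each). This was 1.38-fold lower, or -0.47 ± 0.12 as a log2 fold change (limma adjusted p = 0.0395). The call was not firm. It was lost when cuprizone replicate 1, 3 or 4 or control replicate 1 or 3 was left out, with an adjusted p between 0.0897 and 0.108, and with the mean of the neuron markers as a covariate the log2 fold change was -0.29 (adjusted p = 0.201). Hsd11b1 was also not called by an ordinary F test (adjusted p = 0.16), with clusters of no symbol included (limma adjusted p = 0.0502) or with array weights (limma adjusted p = 0.0626).

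The spread of Hsd11b1 among controls went with markers of the choroid plexus, the secretory epithelium of the ventricles that lie next to the callosum. The mean of 6 choroid plexus markers on control replicates 1 to 4 stood at -0.48, 0.47, -0.80 and 0.82 around the control mean (log2), so that the 2 controls with low marker levels had the high Hsd11b1 levels. On the cuprizone arrays the same marker mean stood at -0.78, 0.45, -0.82 and 0.18, while Hsd11b1 was low on all 4. The control pattern did not recur among these 4, since replicate 2 had both the highest marker mean and the highest Hsd11b1 level. With the marker mean as a covariate, an alternative chosen after these values were seen, Hsd11b1 was lower by a log2 difference of -0.52 ± 0.10 (limma adjusted p = 0.0126). Because the covariate was already seen to follow Hsd11b1 in these controls, the smaller error and adjusted p do not make the call firmer. Of the 6 choroid plexus markers 0 differed between the diets by the limma test, 0 had an unadjusted p under 0.05 and 0 were called by an ordinary F test.

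Fkbp5 (cluster 10449452) encodes FKBP51, a co-chaperone that lowers the hormone affinity of the glucocorticoid receptor and forms a short negative feedback loop with it. Its log2 levels were 8.22, 8.28, 8.33 and 8.49 on the cuprizone arrays, and 7.88, 7.97, 7.93 and 7.94 on the control arrays. The lowest cuprizone array lay above the highest control, and the controls were nearly equal. The means were 8.33 ± 0.12 with cuprizone and 7.93 ± 0.04 in controls (SD, n = 4 each). The increase was 1.32-fold, or 0.40 ± 0.07 as a log2 fold change (limma adjusted p = 0.00316). Of the 10 genes only Fkbp5 kept its call under each of the 20 alternatives run, with log2 fold changes of 0.34 to 0.44 and adjusted p of 0.00119 to 0.0249.

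Per1 (cluster 10377439), a core repressor of the circadian clock that glucocorticoids also induce, had log2 levels of 9.75, 9.69, 9.78 and 9.91 on the cuprizone arrays, against 9.29, 9.59, 9.49 and 9.54 on the control arrays. The groups did not overlap, although cuprizone replicate 2 and control replicate 2 lay close to each other. The means were 9.78 ± 0.09 with cuprizone and 9.48 ± 0.13 in controls (SD, n = 4 each). The increase was 1.23-fold, or 0.30 ± 0.08 as a log2 fold change (limma adjusted p = 0.0319). Without any 1 of 6 arrays (replicates 1, 3 and 4 of each diet) the adjusted p lay between 0.0566 and 0.0820, at log2 fold changes of 0.24 to 0.32. Per1 was also not called by an ordinary F test (adjusted p = 0.0996) or with the neuron marker mean as a covariate (limma adjusted p = 0.0984).

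Zbtb16 (cluster 10593225), which encodes the zinc finger repressor PLZF, had log2 levels of 9.80, 10.14, 9.94 and 10.21 on the cuprizone arrays, and of 9.74, 9.85, 9.81 and 9.77 on the control arrays. Cuprizone replicate 1 lay within the control range and the other 3 above it. The log2 fold change was 0.23 ± 0.09 (limma adjusted p = 0.137). It was 0.31 without cuprizone replicate 1 (adjusted p = 0.0348), the 1 alternative in which Zbtb16 was called.

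Sgk1 (cluster 10362073), a kinase that regulates ion channels and is induced by glucocorticoids, had log2 levels of 9.32, 10.06, 9.76 and 9.78 on the cuprizone arrays. On the control arrays it had 9.79, 9.91, 10.21 and 10.32. The groups overlapped, with cuprizone replicate 2 inside the control range. The means were 9.73 ± 0.31 with cuprizone and 10.06 ± 0.25 in controls (SD, n = 4 each), a log2 fold change of -0.33 ± 0.15 with a 95% interval of -0.67 to 0.0084 (limma adjusted p = 0.254).

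Tsc22d3 (cluster 10606989), also called GILZ, encodes a leucine zipper protein through which glucocorticoids restrain inflammatory transcription. It had log2 levels of 7.63, 7.97, 8.12 and 8.00 on the cuprizone arrays, and of 8.18, 8.16, 8.21 and 8.47 on the control arrays. Although the groups did not overlap, the test did not call it, at a log2 difference of -0.33 ± 0.11, a 95% interval of -0.56 to -0.096 and a limma adjusted p of 0.0892. Sgk1 and Tsc22d3 were both at their lowest on cuprizone replicate 1, the array whose mature oligodendrocyte markers were also lowest. Marker means of astrocytes, progenitors, endothelium, neurons and microglia were also lower there than on the other cuprizone arrays. Those of choroid plexus, mural cells, meningeal fibroblasts and blood leukocytes were not the lowest there. The part of any of these markers in the levels of Sgk1 and Tsc22d3 was not tested. Without cuprizone replicate 1 the log2 fold changes were -0.20 for Sgk1 and -0.23 for Tsc22d3. The 95% interval of Fkbp5 was 0.25 to 0.54, on the other side of 0 from that of Tsc22d3.

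The remaining responsive genes were not called. Sult1a1 (cluster 10568001), a phenol sulfotransferase, had log2 levels of 7.20 to 7.40 on the cuprizone arrays and of 7.14 to 7.53 on the control arrays, and its log2 fold change was 0.038 ± 0.087 (limma adjusted p = 0.872). Plin4 (cluster 10451932), a coat protein of lipid droplets, had 6.69, 6.83, 6.64 and 6.20 on the cuprizone arrays, and 6.63, 6.78, 6.80 and 6.84 on the control arrays. Only cuprizone replicate 4 fell outside the control range of Plin4. Its log2 fold change was -0.17 ± 0.12 (limma adjusted p = 0.467), and -0.044 without that array.

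**Figure D2:**
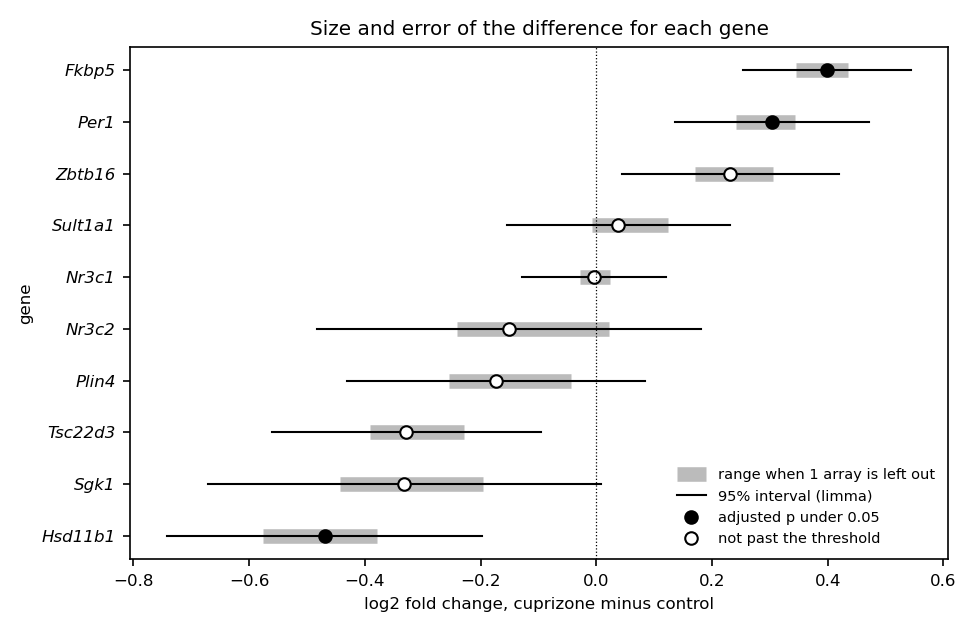
Log2 fold change, cuprizone minus control (horizontal axis), of the 10 genes (rows), with the 95% interval from limma as a line and the range over the 8 fits that each left out 1 array as a grey bar. Filled points passed an adjusted p of 0.05: Fkbp5 at 0.40, Per1 at 0.30 and Hsd11b1 at -0.47. The interval of Nr3c1 is the narrowest, and those of Nr3c2 and Sgk1 are the widest.

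Start windows of 3 genes are shown, 1 of the 6 of Sgk1 because it holds the full receptor element. The only window of Fkbp5 and 1 of the 2 of Per1 are shown because these genes rose. RefSeq start windows (250 bases before to 50 after an annotated start, build GRCm38.p6) were read for 8 of the 10 genes, 16 windows in all, of which Sgk1 had 6, Tsc22d3 had 3 and Per1 had 2. Motifs searched were the palindromic glucocorticoid response element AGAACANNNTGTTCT, its hexamer TGTTCT on either strand and the clock-related E-box CACGTG. Capitals mark the matches.
Sgk1, chr10:21993640-21993939, plus strand: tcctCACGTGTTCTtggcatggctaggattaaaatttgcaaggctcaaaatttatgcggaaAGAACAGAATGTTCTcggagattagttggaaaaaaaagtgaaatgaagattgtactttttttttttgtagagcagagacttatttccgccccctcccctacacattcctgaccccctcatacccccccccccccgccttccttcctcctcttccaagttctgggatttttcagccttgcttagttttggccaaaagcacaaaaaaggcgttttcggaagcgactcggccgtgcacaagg
Fkbp5, chr17:28486100-28486399, minus strand: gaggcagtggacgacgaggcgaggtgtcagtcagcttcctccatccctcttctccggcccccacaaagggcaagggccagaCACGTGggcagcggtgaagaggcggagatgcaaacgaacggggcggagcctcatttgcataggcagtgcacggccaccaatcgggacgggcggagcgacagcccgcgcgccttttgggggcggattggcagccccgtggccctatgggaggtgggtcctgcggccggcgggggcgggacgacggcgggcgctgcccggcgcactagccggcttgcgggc
Per1, chr11:69098699-69098998, plus strand: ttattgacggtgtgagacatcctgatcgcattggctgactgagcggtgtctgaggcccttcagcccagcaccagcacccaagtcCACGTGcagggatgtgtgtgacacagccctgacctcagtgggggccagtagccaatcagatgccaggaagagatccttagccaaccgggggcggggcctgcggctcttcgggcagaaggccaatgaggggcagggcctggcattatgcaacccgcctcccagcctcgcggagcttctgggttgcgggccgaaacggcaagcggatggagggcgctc
The Sgk1 window shown holds the full element as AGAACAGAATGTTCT, 189 to 175 bases before its own annotated start, which is 1 of 6 for that gene. Such a match was found in 3 of 32851 mouse windows (0.00913%). None of the other Sgk1 windows holds the full element, and 6 windows gave Sgk1 more room for a match than Fkbp5 (1) or Per1 (2) had. The next sentence is again about the window shown. The Sgk1 window shown also holds an E-box that overlaps another hexamer at its upstream end. The hexamer occurred in 19% of all windows and, among these genes, in windows of Sgk1, Sult1a1 and Tsc22d3. The Fkbp5 window has an E-box 169 bases and the Per1 window shown one 166 bases before its own start, and 7.15% of all windows have one. The other Per1 window, not shown, holds no match to any of the motifs searched. Sgk1, with the full element in 1 of its 6 windows, had the log2 fold change of -0.33 that was not called. No match to the element or its hexamer was found in the windows of Fkbp5 and Per1, which rose. These are matches of letters within short windows, and sequence outside them was not searched.

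The 8 arrays had similar distributions, with medians of 7.44 to 7.49 over the named clusters, and correlated at 0.9952 to 0.9971 within a diet and at 0.9884 to 0.9944 between diets. Cuprizone replicate 2 and control replicate 2 stood nearest to the other group on the first principal component. Without these 2 arrays Fkbp5, Per1 and Hsd11b1 were still the 3 genes called, at larger log2 fold changes of 0.43, 0.37 and -0.57. Because the arrays left out were picked as the nearest to the other diet, that fit does not show how firm the calls are. Mature oligodendrocyte markers, which define this tissue, all fell: 11 of 11 were called lower and their mean minus the control mean was -2.82 to -1.97 on the cuprizone arrays, against -0.15 to 0.084 on the control arrays (log2). All 8 neuron markers, such as Slc17a7 and Neurod6 of cortical excitatory neurons, lay above the median cluster. By mean level Snap25 stood at percentile 99.8 of all clusters, Slc17a7 at 97.9 and Neurod6 at 67.1, beside 98.5 for Mbp and 81.1 for Mog of oligodendrocytes. The levels given here are therefore those of tissue with neuronal RNA, not of white matter cells alone. Of the 8 neuron markers 0 differed between the diets by the limma test, with 2 at an unadjusted p under 0.05 and 1 called by an ordinary F test.

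The changes of the 10 genes stood beside large shifts of glial markers. Microglia markers were called higher in 5 of 7 cases, with C1qb (a complement subunit) at 1.14 ± 0.11 and Csf1r (the receptor of a microglial survival factor) at 0.61 ± 0.06 as log2 fold changes, and their mean lay 0.38 to 0.70 above the control mean on the cuprizone arrays, against -0.078 to 0.062 on the control arrays. Of 8 astrocyte markers 3 rose, led by the filament gene Gfap (0.96 ± 0.06), and 2 fell, led by the glutamate transporter Slc1a2 (-0.60 ± 0.07). By limma 0 markers were called among 6 of progenitors (3 at an unadjusted p under 0.05), 7 of endothelium (2), 6 of mural cells (1) and 6 of meningeal fibroblasts (1), and an ordinary F test also called 0 in these lists. Of the blood leukocyte markers 1 of 9, Ncf1, rose (0.40 ± 0.07), a gene that microglia also express. The part of these shifts in the changes of Fkbp5, Per1 and Hsd11b1 was not tested. On the cuprizone arrays Fkbp5 and Per1 were highest on replicate 4, microglia markers on replicate 3 and astrocyte markers on replicate 2. Hsd11b1 was lowest on replicate 4 and oligodendrocyte markers on replicate 1. Ranks over 4 arrays cannot show which of these shifts a gene followed.

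**Figure D3:**
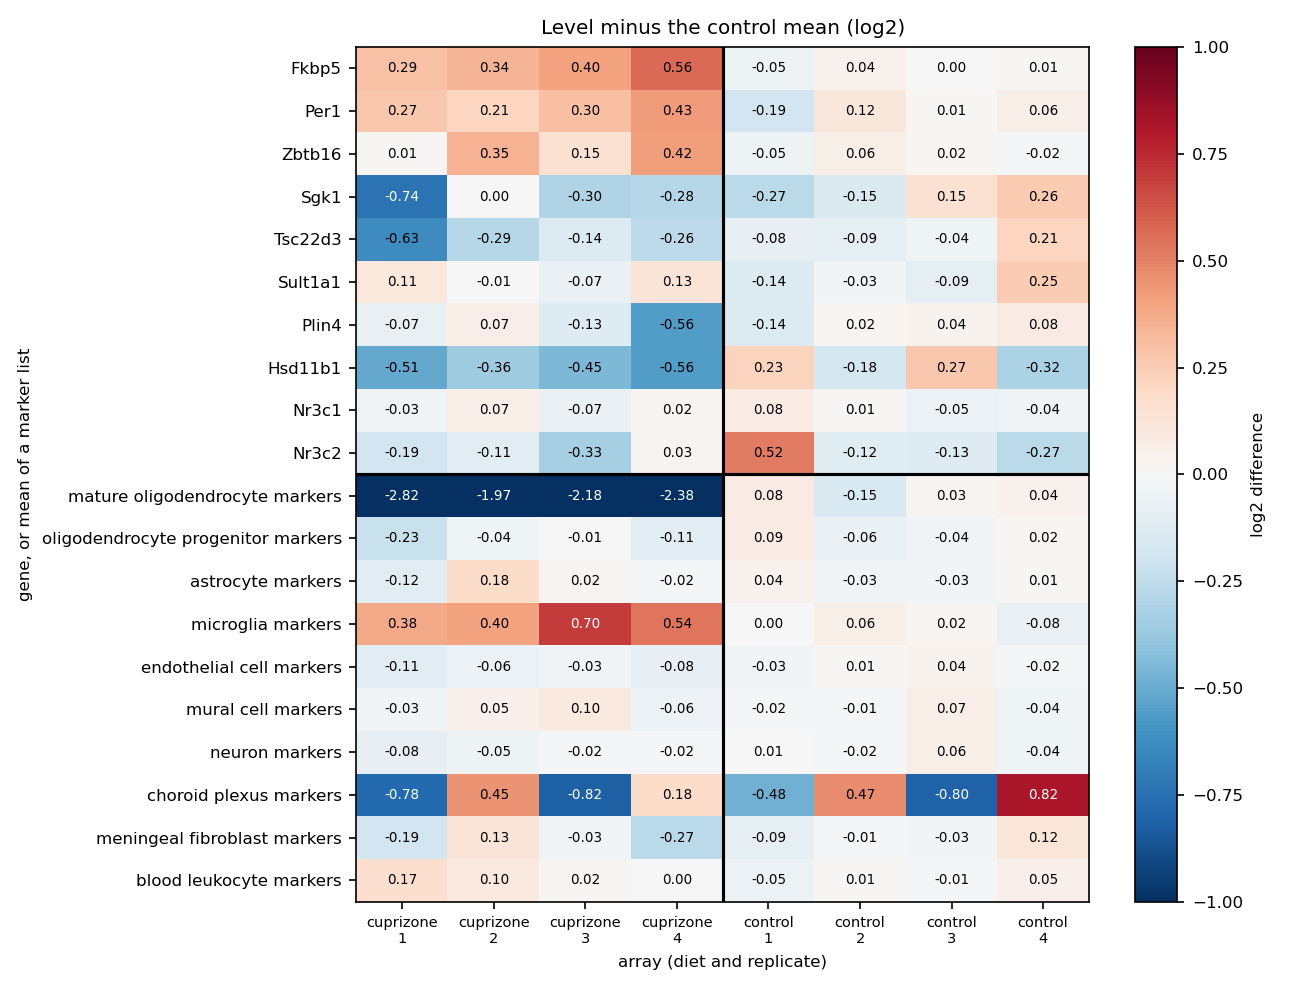
Log2 level minus the mean of the 4 control arrays, for the 10 genes (upper rows) and for the mean of each marker list (lower rows), on each cuprizone and control array (columns), with colours ending at -1 and 1. Fkbp5 and Per1 are positive and Hsd11b1 negative on all 4 cuprizone arrays. Choroid plexus markers vary between arrays of the same diet, from -0.82 to 0.82, while mature oligodendrocyte markers separate the diets.

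Other genes that glucocorticoids induce moved both ways. Of 25 measured, 3 rose and 4 fell, where 4.71% of all clusters were called higher and 3.52% lower, and the median log2 fold change was 0.071, beside -0.0074 for all clusters. Higher were Cebpd (0.70 ± 0.07, limma adjusted p = 0.000107), a transcription factor that inflammatory signals also induce, and Bcl6 (0.57 ± 0.08), a transcriptional repressor. Lower were the arrestin-domain gene Arrdc2 (-0.65 ± 0.09, limma adjusted p = 0.00089) and Glul (-0.49 ± 0.06), glutamine synthetase, which astrocytes and oligodendrocytes express. The other 3 called genes, named after their values were seen, were the transcription factor gene Klf15 (0.31 ± 0.06), the growth inhibitor gene Ddit4 (-0.40 ± 0.08) and the small GTPase gene Rhob (-0.37 ± 0.08). The largest value of the list that was not called, also named afterwards, was that of Lcn2 (lipocalin 2) at 0.85 ± 0.28 (limma adjusted p = 0.0989). Its log2 level was 6.98 on control replicate 2 and 5.52 to 5.79 on the other controls.

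Of 16 measured genes of receptor chaperones, transport and coregulators, 1 fell and 0 rose, at a median log2 fold change of 0.017, where 3.52% of all clusters were called lower and 4.71% higher. The 1 was Ipo13 (-0.23 ± 0.06, limma adjusted p = 0.0293), an importin that carries the glucocorticoid receptor into the nucleus, and it was not called in 8 of the 20 alternatives. Hsp90aa1, Fkbp4 and the coactivator Ncoa2, named for their roles and not called, had log2 fold changes of 0.054, -0.052 and 0.00022. Of 3 measured sex steroid receptors 0 were called by limma, 0 had an unadjusted p under 0.05 and 0 were called by an ordinary F test. The smallest p among them were those of Esr2 (-0.079 ± 0.071), an oestrogen receptor, and of Pgr (-0.059 ± 0.082), the progesterone receptor.

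Among 15 measured genes of steroid metabolism and transport, 2 rose and 1 fell, beside 4.71% and 3.52% of all clusters. Tspo (0.53 ± 0.12, limma adjusted p = 0.0212), a cholesterol-binding protein of the outer mitochondrial membrane that activated microglia express, and Abcb1b (0.32 ± 0.09), an efflux pump that can export corticosteroids, were higher. Cyp11a1 (-0.28 ± 0.07), the side chain cleavage enzyme that begins steroid synthesis, was lower, at log2 levels of 6.32 ± 0.09 with cuprizone and 6.59 ± 0.12 in controls (SD, n = 4 each). An ordinary F test called 0 of the 15. H6pd, which supplies the cofactor of the enzyme encoded by Hsd11b1, and Hsd11b2, whose product inactivates corticosterone, were named for these roles and had log2 fold changes of -0.017 ± 0.052 and 0.0062 ± 0.079. With the choroid plexus marker mean as a covariate, Cyp11a1 and Abcb1b were no longer called (limma adjusted p = 0.0597 and 0.0743), and over all alternatives they were not called in 11 of 19 and 14 of 19. Tspo was not called in 7 of 19, 5 of them fits that left out 1 array.

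Per1 belongs to the clock, and of the 15 other measured clock genes 4 rose and 0 fell, beside 4.71% and 3.52% of all clusters, at a median log2 fold change of 0.040. Of these 4 the repressor gene Nfil3 had the largest log2 fold change (0.65 ± 0.07, limma adjusted p = 0.000231), followed by Bhlhe40 (0.35 ± 0.10), Ciart (0.31 ± 0.09) and Nr1d2 (0.21 ± 0.06), each of which encodes a repressor in the clock's loops. The adjusted p of these last 3 lay between 0.0467 and 0.0480, and they were not called in 13 (Bhlhe40), 12 (Ciart) and 15 (Nr1d2) of the 20 alternatives, whereas Nfil3 was called in all 20. With the choroid plexus covariate Nfil3 alone of the list was called. The clock activators Arntl and Clock had log2 fold changes of -0.054 ± 0.063 and 0.018 ± 0.056 and were not called. The mean of the 15 genes lay 0.11 to 0.21 above the control mean on the cuprizone arrays and between -0.078 and 0.089 of it on the control arrays.

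Immediate early genes, which rise within a short time of handling or neuronal activity, were also mixed. Of 12 measured, 2 rose, Egr2 (0.48 ± 0.09, limma adjusted p = 0.00681) and Fos (0.42 ± 0.09), and 1 fell, Npas4 (-0.32 ± 0.07), a neuron-specific activity gene, beside 4.71% of all clusters called higher and 3.52% lower. Their mean on the cuprizone arrays lay inside or just above its range on the control arrays, at 0.00080 to 0.093 against -0.15 to 0.070 around the control mean.

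**Figure D4:**
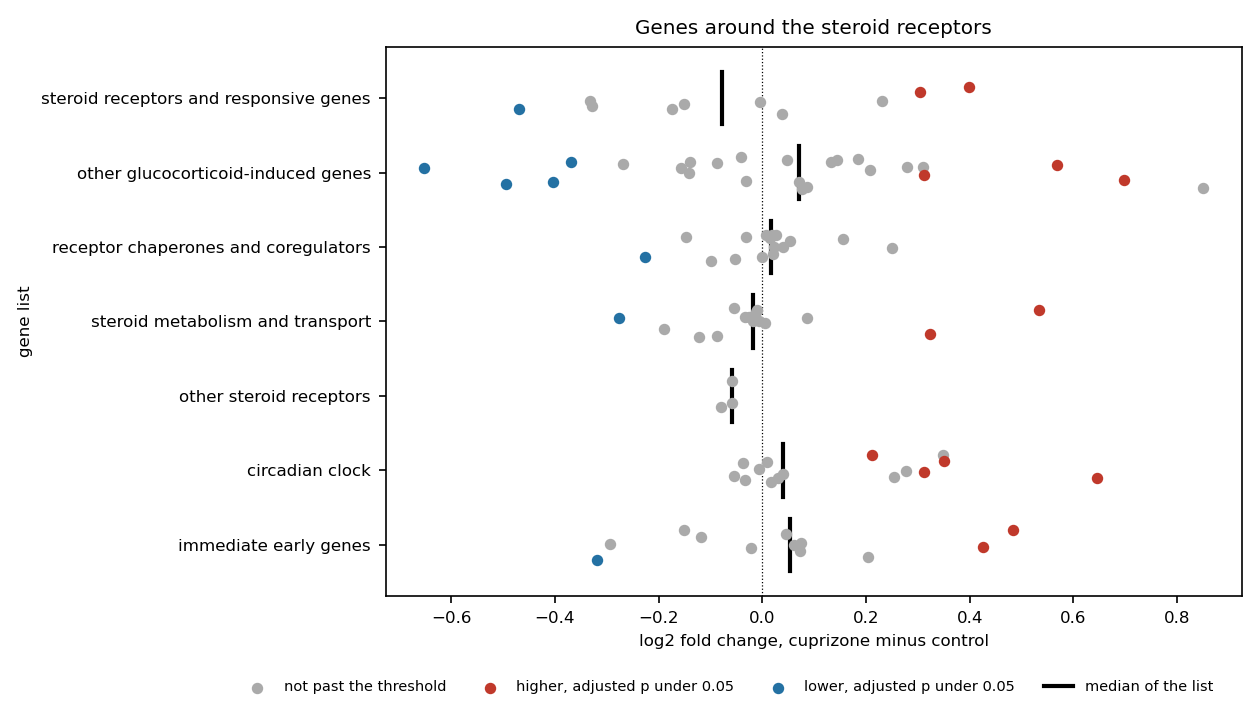
Log2 fold change, cuprizone minus control (horizontal axis), of each measured gene in the list of steroid receptors and responsive genes and in 6 lists of related genes (rows), with genes called higher in red, genes called lower in blue and the list median as a bar. All list medians lie between -0.077 and 0.071. The called genes of the clock list all lie above 0, and those of the list of other glucocorticoid-induced genes lie on both sides of 0.

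Genes with profiles near those of the 3 called genes were sought by root mean square difference of centred log2 levels over the 8 arrays. The medians below cover 19937 other genes, whereas the search skipped symbols of some kinds, such as Gm, Rik, LOC, Mir, Olfr and Vmn. Only the nearest of the genes searched are given. For Fkbp5 these were the histone gene H3c4 (0.034), the hexosamine pathway enzyme gene Gnpnat1 (0.047) and Cables1 (0.052), beside a median of 0.24 over all genes. For Per1 they were Ehd2 (0.047), the calcineurin inhibitor gene Rcan1 (0.048) and the AP-1 subunit gene Fosl2 (0.052), beside a median of 0.21. Among the genes searched, the profile of Hsd11b1 had no equally near neighbour: the nearest were the magnesium transporter gene Nipa1 (0.11), Wfdc18 (0.11) and the sterol carrier gene Stard4 (0.12), beside a median of 0.31.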

How the data were processed

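The deposited values are log2 levels of 28944 transcript clusters on 8 arrays. Per the submitters' processing notes, the authors used Affymetrix Expression Console, RMA and Transcriptome Analysis Console, without versions or roles given. RMA brings arrays to nearly one distribution, which hides any change common to most transcripts and compresses folds of dim and bright clusters. Without scanner files, detection calls or scan dates, which were not used here, batches could not be tested and no signal over background can be given. Per the labels' protocols, 150 ng of RNA per sample was amplified and labelled.

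Clusters were named by the platform annotation: 21789 had 1 symbol, 1621 several and 5534 none. The 23410 with a symbol were fitted with limma (version 3.58.1, R 4.3.3), with cuprizone minus control as the contrast, without covariates and without a filter on dim clusters. Tests were two-sided, with p-values adjusted by Benjamini-Hochberg over all of them. Errors after ± are SEs for log2 fold changes and SDs for means. A gene is its brightest single-symbol cluster. The script was tested on simulated data.

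The 10 genes and all lists were chosen with earlier results of these data known. Named are the 10 genes, up to 4 called genes with the smallest p per related list (otherwise 2), up to 2 markers per cell type, and 3 nearest profiles per called gene. Of 96 listed related genes 86 were analysed. The others had no cluster with their symbol alone and were left out of the list counts. Replicates are separate mice only as far as the labels call them biological. Array number limits the precision of all values.

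Alternatives were the replicate block, leaving out each array, leaving out replicate 2 of both diets, an intensity trend with robust prior, an ordinary F test, repeated quantile normalization, median centring, 2 filters on dim clusters, all clusters, array weights, the neuron marker mean as a covariate and, added after the data were seen, the choroid plexus marker mean as a covariate.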

Additional observations from a re-analysis of the deposited data

Results flagged for a closer look

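Outlying arrays were looked for in each diet for 47 genes, in 94 groups of 4 arrays, by Dixon's ratio, which flags about 1 in 20 groups by chance. It marked 3. Tsc22d3 had a log2 level of 8.47 in control replicate 4 and of 8.16 to 8.21 in controls 1 to 3, and its log2 fold change without that array was -0.26 (limma adjusted p = 0.215), against -0.33 with it. The clock gene Nr1d2 stood at 9.79 in control replicate 2 and at 9.66 to 9.68 in controls 1, 3 and 4. The smooth muscle marker Acta2 had 9.71 on cuprizone replicate 3, against 9.10 to 9.21 on the other cuprizone arrays. The cause of these values was not tested.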

How the results depend on the processing

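The call of Fkbp5 held in all 20 alternatives, whereas that of Per1 was lost in 9 of 20 and that of Hsd11b1 in 9 of the 19 that tested it. The number of the 10 genes called higher was 2, and 1 with the replicate block, an ordinary F test or the neuron covariate, and 1 to 2 when 1 array was left out. The number called lower was 1, and 0 with an ordinary F test, the filter at the median (which removes Hsd11b1), all clusters, array weights or the neuron covariate, and 0 to 1 when 1 array was left out. Of all clusters 1925 were called, and 1187 by an ordinary F test. Of the 86 related genes 18 were called, 8 by an ordinary F test, 11 with the neuron covariate, and 11 to 17 when 1 array was left out, with 11 without cuprizone replicate 3. By list, over all alternatives, 1 to 5 clock genes (4 in the main result), 0 to 2 genes of steroid metabolism (2), 3 to 5 other glucocorticoid-induced genes (3) and 0 to 2 immediate early genes (2) were called higher. Called lower were 2 to 4 other glucocorticoid-induced genes (4), 0 to 2 of steroid metabolism (1), 0 to 2 immediate early genes (1) and 0 to 1 chaperone or coregulator genes (1).

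Among the 10 genes and the 46 other named genes refitted under the alternatives, signs turned in 4, none of them called. Nr3c1 lay between -0.028 and 0.023 when 1 array was left out and at 0.0037 with the choroid plexus covariate, against -0.0037. Nr3c2 lay between -0.24 and 0.022, and Sult1a1 between -0.0072 and 0.12, when 1 array was left out, and Sult1a1 was at -0.067 with the neuron covariate. Pgr lay between -0.12 and 0.0019 when 1 array was left out, at 0.028 without replicate 2 of both diets and at 0.018 with the neuron covariate. The cause of these turns was not tested. Samples with equal replicate numbers did not deviate together (correlations of -0.19, -0.025, 0.21 and -0.065), so the numbers were not taken as pairs. The replicate block left the log2 fold changes as they were and changed 1 call among the 10 genes, that of Per1 (adjusted p = 0.0512), with 1528 clusters and 12 related genes called. Using another single-gene cluster of the same gene was not run, since each of the 10 genes has only 1.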
